A study of Homo sapiens with 4 samples.

Results

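The Polo-like kinases PLK1, PLK2, PLK3 and PLK4 were 4 of the 57820 gene rows measured by RNA-seq in SY5Y neuroblastoma cells, and all 4 had enough fragments to be among the 16468 genes tested. The members were taken by gene name, to set the mitotic PLK1 and PLK4 beside the stress-responsive PLK2 and PLK3. The family was chosen by its log2 fold changes in the treated-against-control contrast, which were known, so the contrast values of the 4 genes are given as a description, with no test. SY5Y is an established human neuroblastoma cell line, labelled MYCN wild type. The treated group received 3 μM SGSS05-NS and the control group received the vehicle DMSO, and cells were collected after 12 h, with 2 libraries in each group. The study names its compound SGSS05-NS3 and describes it as a covalent inhibitor of SETD8, a lysine methyltransferase that modifies histone H4. In the study's supplement, SGSS05-NS3 also inhibited other lysine and arginine methyltransferases, at higher concentrations than SETD8 and for several of them below 3 μM. The compound's name is given here as labelled. The study's discussion also lists an SGSS05-NS, in the series of compounds that holds SGSS05-NS3. It describes SGSS05-NS as inhibiting SETD8 and, at low micromolar concentrations, other methyltransferases too. Whether both names mean 1 compound is not stated in the sources used here. The dose is also as labelled, as in the study's figure legends, while its methods name another dose for this line. Both groups come from 1 cell line without any genetic change, and the methods describe the replicates as independent biological ones.

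Polo-like kinases are serine/threonine kinases with an amino-terminal catalytic domain and a carboxy-terminal region of polo boxes, which docks substrates and places the enzyme in the cell. PLK1 drives mitotic entry, centrosome maturation, spindle assembly and cytokinesis, and its transcript accumulates late in the cell cycle. PLK4 starts the assembly of a new centriole beside each old one. PLK2 and PLK3 were found as serum-inducible genes and respond to growth factors, DNA damage and other stresses. PLK2 also acts at synapses of neurons, and PLK3 phosphorylates the checkpoint kinase CHK2.

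All positions of the genes are from GENCODE release 44 on GRCh37, the build of the deposited counts. PLK1 (ENSG00000166851.10) lies on chromosome 16 from 23688977 to 23701688 on the plus strand, with 10 exons in its canonical transcript. PLK4 (ENSG00000142731.6) lies on chromosome 4 from 128802048 to 128820379 on the plus strand, with 16 exons. PLK2 (ENSG00000145632.10) lies on chromosome 5 from 57749809 to 57755966 on the minus strand, with 14 exons. PLK3 (ENSG00000173846.8) lies on chromosome 1 from 45266049 to 45271662 on the plus strand, with 15 exons. The 4 genes are short. PLK3 spans 5.61 kb, PLK2 6.16 kb, PLK1 12.7 kb and PLK4 18.3 kb, against a median of 34.8 kb over the 12567 protein-coding genes tested.

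The stretches directly before the transcription starts show how differently the promoters of the 4 paralogs are built. The sequences are from RefSeq on GRCh38.p14, run 5′ to 3′ along the gene and end at the last base before the start. PLK4 has 3 annotated starts, of which the most upstream is shown. Capitals mark matches on either strand to the motifs named in the next paragraph.
PLK1, chr16:23678769-23678888, plus strand: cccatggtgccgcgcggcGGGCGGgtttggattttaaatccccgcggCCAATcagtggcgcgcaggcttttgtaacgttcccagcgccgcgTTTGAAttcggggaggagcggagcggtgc
PLK4, chr4:127880773-127880892, plus strand: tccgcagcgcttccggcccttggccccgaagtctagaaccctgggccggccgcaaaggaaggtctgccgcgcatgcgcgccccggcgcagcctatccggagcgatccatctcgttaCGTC
PLK2, chr5:58460087-58460206, minus strand: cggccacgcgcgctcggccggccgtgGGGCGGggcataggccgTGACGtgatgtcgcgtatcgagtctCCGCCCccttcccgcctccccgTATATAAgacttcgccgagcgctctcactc
PLK3, chr1:44800257-44800376, plus strand: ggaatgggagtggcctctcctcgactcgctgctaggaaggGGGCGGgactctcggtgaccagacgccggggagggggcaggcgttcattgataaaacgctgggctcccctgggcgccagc

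Motif letters were searched on both strands of the RefSeq windows from 250 bases before to 50 bases after each start. TTTGAA, the core of the cell cycle genes homology region (CHR), an element in promoters of late cell cycle genes, began 29 bases before the start of PLK1. It was present in 15.2% of all 35116 windows. A CCAAT box (CCAAT, in 34.6% of windows) began 73 bases before the PLK1 start and a GC box (GGGCGG, in 45.0%) 102 bases before it. In the window shown for PLK4, TTTGAA matched 39 bases after the start on the other strand, a GC box began 137 bases before it, outside the printed stretch, and TGACG, the half-element bound by cyclic AMP response factors (in 24.6% of windows), ran across the start. In PLK2, TGACG began 77 bases before the start, between a pair of GC boxes at 94 and 52 bases. The TATA box variant TATATAA (in 2.6% of windows), added to the search after the sequence was seen, began 30 bases before the PLK2 start, and a match to the p53 half-site (in 6.6% of windows) began at 132 bases, just outside the printed stretch. The half-site is 1 of the 2 parts of a full p53 element. PLK3 held GC boxes 80 bases before and 43 bases after its start and no other letters of the motifs searched. The TATA box letters TATAAA (in 11.5% of windows), the full cyclic AMP element (TGACGTCA, in 1.8%), an AP-1 site (TGANTCA, in 7.7%), an E2F site (TTTNNCGC, in 6.9%) and the CArG box (in 1.3%) were in none of the windows of the 4 genes. The windows at the other starts of PLK4 held GC boxes, and 1 of them also held a heat shock element (GAANNTTC, in 6.8%) and the other a CCAAT box and an antioxidant response element (TGACNNNGC, in 13.3%, whose letters can overlap with TGACG). A match gives letters in a window and no evidence of binding.

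The libraries held between 21463105 and 25350204 fragments on genes, and the replicates of each group differed by more than sampling noise. SETD8, listed as KMT5A, was expressed in every library, at 54.6 and 56.8 CPM in controls and 82.8 and 83.0 CPM after treatment, where CPM is the field's usual count of fragments scaled to library size, here with edgeR's TMM factors. Of 12 sympathoadrenal neuroblastoma markers, 11 had at least 1 CPM in every library, while TH, the enzyme that starts catecholamine synthesis, had between 0 and 2 fragments. Their summed level was 5277 and 5641 CPM with DMSO and 3198 and 3127 CPM with SGSS05-NS. The 8 markers of other cell types summed to between 1.51 and 3.70 CPM, of which EPCAM alone gave between 1.47 and 3.57 CPM, and CD3E, HBB and KRT5 had no fragment. Fragments without an annotated exon on the counted strand made up 12.4% and 12.3% with DMSO and 16.1% and 15.3% with SGSS05-NS. The base is all fragments, also those unmapped or mapped to several places. The part of these shifts in the values of the kinases was not tested.

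PLK1, the mitotic kinase, was the most abundant member in control cells and was lower after treatment. It had 110.2 and 106 CPM in controls and 79.5 and 67.0 CPM in treated cells, from 2766, 2474, 1764 and 1577 fragments. The groups did not overlap, and the second treated library was the lower of the pair. PLK1 averaged 108 ± 3.07 CPM (SD, n = 2) in controls, against 73.3 ± 8.79 CPM (SD, n = 2) in treated cells, a log2 fold change of -0.56 (standard error 0.10), or 67.8% of the control level. In bulk RNA, fewer cells in a phase of the cell cycle and less RNA per cell cannot be told apart. Of all genes tested, 16.3% had a lower log2 fold change than PLK1.

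PLK4, the centriole kinase, was lower by a smaller amount. It had 69.9 and 74.2 CPM with DMSO and 55.6 and 51.9 CPM with SGSS05-NS, from 1753, 1733, 1235 and 1221 fragments. The 2 libraries of each group lay close together and the groups did not overlap. PLK4 averaged 72.0 ± 3.05 CPM (SD, n = 2) in controls, against 53.8 ± 2.64 CPM (SD, n = 2) in treated cells, a log2 fold change of -0.42 (standard error 0.09), or 74.7% of the control level. Among all genes, 21.4% had a lower log2 fold change.

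PLK2, the stress-responsive and synaptic kinase, was higher in both treated libraries than in either control. It had 22 and 27.7 CPM with DMSO and 93.1 and 112 CPM with SGSS05-NS, from 552, 646, 2066 and 2624 fragments. The second library was the higher of the pair in each group, and the groups were far apart. PLK2 averaged 24.8 ± 4.0 CPM (SD, n = 2) in controls, against 102 ± 13.1 CPM (SD, n = 2) in treated cells. The log2 fold change was 2.04 (standard error 0.13), a 4.13-fold higher level, and PLK2 had rank 360 among the 16468 genes ordered from the highest log2 fold change.

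PLK3, the other stress-responsive kinase, was the rarest member in control cells and differed most between the groups. It had 4.03 and 4.11 CPM with DMSO and 50.3 and 55.6 CPM with SGSS05-NS, from 101, 96, 1117 and 1307 fragments. Both control libraries were low and almost equal, so the difference did not rest on 1 library. PLK3 averaged 4.07 ± 0.0592 CPM (SD, n = 2) in controls, against 52.9 ± 3.71 CPM (SD, n = 2) in treated cells. The log2 fold change was 3.70 (standard error 0.13), a 13.0-fold higher level, and the rank from the top was 76.

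**Figure D1:**
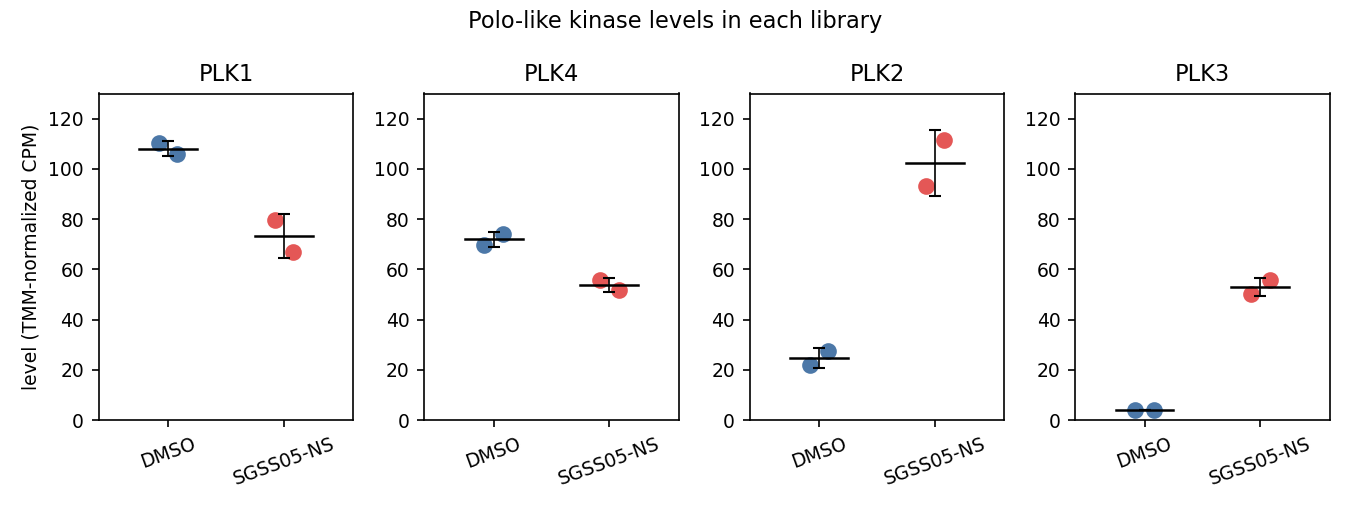
Level of each kinase in each library, in TMM-normalized CPM on a linear axis from 0; points are libraries, the horizontal line is the mean of a group and the bar its SD (n = 2). PLK1 and PLK4 are lower and PLK2 and PLK3 higher in both SGSS05-NS libraries than in either DMSO library.

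In all 4 genes the groups did not overlap, PLK2 and PLK3 being higher with SGSS05-NS and PLK1 and PLK4 lower. Among all genes tested, 37.8% were higher and 36.9% lower without overlap, so with 2 libraries against 2 this order is common. At an adjusted p-value under 0.001 in edgeR's quasi-likelihood test, the threshold of the study, 14.5% of all genes were called, 6.37% as higher and 8.14% as lower. PLK2 and PLK3 were among the higher genes and neither PLK1 nor PLK4 was among the lower ones, which is stated only as a description because this contrast chose the family. With edgeR's likelihood ratio test, which the study used, all 4 kinases were among the genes called, PLK1 and PLK4 as lower, and this too is a description. At the same threshold, PLK1 was also called as lower with DESeq2, limma voom and DESeq2 size factors. The same held without a filter on low counts, with the replicate block and with unstranded counts. It was not called with library sizes only or with at least 10 counts in every library. The size of its difference also depended on the treated library kept. The log2 fold change of PLK1 was -0.44 without the second SGSS05-NS library and -0.70 without the first. PLK4 was otherwise called only without a filter on low counts.

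**Figure D2:**
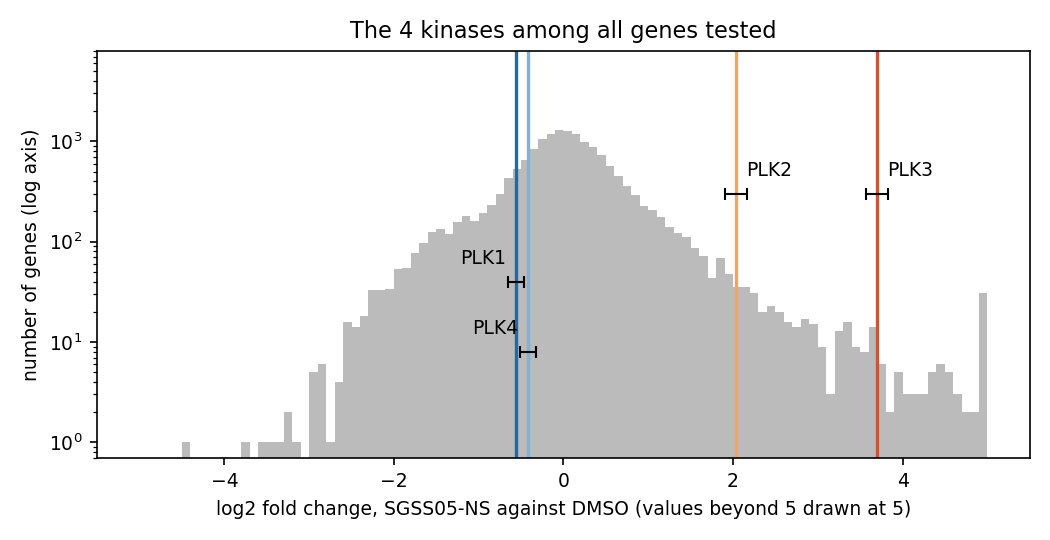
Histogram of the log2 fold change of SGSS05-NS against DMSO over the 16468 genes tested, with the number of genes on a log axis; values beyond 5 are drawn at 5, vertical lines mark the 4 kinases and bars extend 1 standard error to each side. PLK2 (2.04) and PLK3 (3.70) lie in the upper tail, and PLK1 (-0.56) and PLK4 (-0.42) lie on the lower shoulder of the distribution.

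Fragments read from the strand opposite to the gene were rare for the whole family, from 0.102% of the fragments of PLK2 to 0.319% of those of PLK4, where libraries as a whole held between 4.64% and 5.05%. ERN2 and the gene ENSG00000261266 overlap PLK1 on the opposite strand, DYNLT4 overlaps PLK3 on the opposite strand and the small RNA pseudogene RNU6-583P lies within PLK4. No annotated gene overlaps PLK2. Counted without regard to strand, PLK1 lost some fragments to its overlap, with 2706, 2432, 1723 and 1556 left in the 4 libraries, and its log2 fold change was -0.60. PLK3 then had a log2 fold change of 3.65. The direction and size of the differences therefore held without the strand information.

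To compare levels between the kinases, CPM was divided by the length of the merged exons, which is 4.76 kb for PLK1, 4.65 kb for PLK2, 3.33 kb for PLK3 and 4.48 kb for PLK4. In control cells, PLK1 had the highest level with 22.7 ± 0.646 CPM per kb (SD, n = 2), followed by PLK4 with 16.1 ± 0.681, PLK2 with 5.34 ± 0.860 and PLK3 with 1.22 ± 0.0178 CPM per kb. No neighbours in this order overlapped between libraries. PLK1 stood above 89.2% of the genes tested in level per length, PLK4 above 83.9%, PLK2 above 58.9% and PLK3 above 29.7%.

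After treatment the order was different. PLK2 led with 22.02 ± 2.81 CPM per kb (SD, n = 2), PLK3 followed with 15.9 ± 1.11 and PLK1 with 15.4 ± 1.85, and PLK4 was last with 12.0 ± 0.589 CPM per kb. PLK3, with 15.1 and 16.7 CPM per kb in the 2 libraries, and PLK1, with 16.7 and 14.1, did not differ beyond their spread. With the length of the longest annotated transcript in place of merged exons, PLK2 had 33.3 and 39.96 CPM per kb in the treated libraries. PLK3 then had 20.3 and 22.4 CPM per kb, above the 19.2 and 16.2 of PLK1. The lead of PLK2 therefore did not depend on the length used, and the order of PLK3 and PLK1 did.

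The make-up of the family differed between the groups. PLK2 and PLK3 together made up 13.3% and 15.6% of the summed level per kb of the 4 genes in controls, against 54.7% and 61.3% in treated cells. With the longest transcript as length the shares were 17.5% and 20.5% with DMSO and 61.4% and 67.7% with SGSS05-NS. The share of PLK1 went from 50.1% ± 2.43 to 23.6% ± 3.36 (SD, n = 2 each) and that of PLK4 from 35.5% ± 0.787 to 18.4% ± 1.32. The share of PLK2 went from 11.8% ± 1.66 to 33.7% ± 3.54 and that of PLK3 from 2.70% ± 0.0150 to 24.3% ± 1.15. The summed level was 44.7 and 46.0 CPM per kb with DMSO and 64.3 and 66.4 CPM per kb with SGSS05-NS, so the family as a whole was more abundant after treatment.

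**Figure D3:**
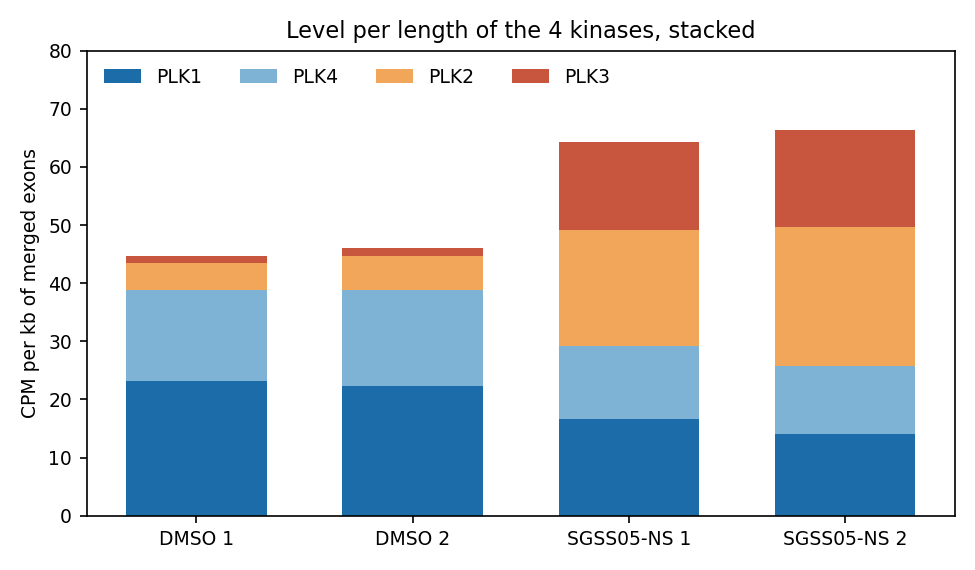
Stacked level of the 4 kinases in each library, in CPM per kb of merged exons, on a linear axis from 0. The sum is 44.7 and 46.0 with DMSO and 64.3 and 66.4 with SGSS05-NS, and PLK2 and PLK3 take more than 50% of it only in the treated libraries, with 54.7% and 61.3%.

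Ratios of fragments within a library, which need no scaling between libraries, showed the same. For each fragment of PLK1 there were 0.1996 and 0.261 of PLK2 in control cells, against 1.17 and 1.66 in treated cells. The pair of stress-responsive genes did not move by the same factor, since PLK3 had 0.183 and 0.149 fragments for each of PLK2 with DMSO and 0.541 and 0.498 with SGSS05-NS. The ratio of PLK1 to PLK4 differed less, with 1.58 and 1.4276 with DMSO and 1.4283 and 1.29 with SGSS05-NS. The groups overlapped only by the narrow margin between 1.4276 and 1.4283. Across the 4 libraries the centred log2 profiles of PLK1 and PLK4 were 0.20 apart and those of PLK2 and PLK3 1.65 apart, while pairs across these 2 classes were between 2.48 and 4.25 apart. These ratios and distances, like the shares of the family, mostly restate the log2 fold changes by which the family was chosen. They are no separate evidence of 2 classes.

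Of the activators and substrates of PLK1, a minority passed the test, each of them lower with SGSS05-NS. Of 25 such genes, all tested, 5 fell and 0 rose at an adjusted p-value under 0.001, where 8.14% of all genes fell, and the median log2 fold change was -0.40 against 0.01 over all genes. BUB1B, a spindle checkpoint kinase that docks PLK1, fell from 143 ± 2.10 to 74.2 ± 14.8 CPM (SD, n = 2 each), or -0.95 on the log2 scale with a standard error of 0.12 (adjusted p = 8.4e-05, edgeR). ECT2, the exchange factor of cytokinesis, fell by 0.71 on the log2 scale (adjusted p = 0.00022, edgeR). CENPU, a kinetochore protein that binds PLK1, had a log2 fold change of -0.04 (adjusted p = 0.80, edgeR). AURKA, the kinase that activates PLK1, and its cofactor BORA were singled out after their values were seen. AURKA fell from 70.8 ± 6.70 to 40.6 ± 9.96 CPM (SD, n = 2 each; log2 fold change -0.80, adjusted p = 0.00078, edgeR), and BORA had 15.2 ± 2.12 and 11.5 ± 2.02 CPM (log2 fold change -0.41, adjusted p = 0.049, edgeR). With library sizes as the only scaling 1 of the 25 genes was called, so that the calls of ECT2 and AURKA were lost. In that setting 997 of all 16468 genes were called lower. With 1 library left out, the median log2 fold change of the 25 lay between -0.53 and -0.31.

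Late cell cycle genes are the class in which PLK1 is usually placed. Their list shares genes with that of the PLK1 activators and substrates, AURKA and CCNB1 among them, so the lists are not independent of each other. Of 29 genes, 10 fell, 0 rose and 19 did not pass the test, where 8.14% of all genes fell. The median log2 fold change of the 29 was -0.54, against 0.01 over all genes and -0.56 for PLK1. PLK1 lay in the middle of the list, with 13 genes below and 16 above its log2 fold change. DLGAP5, a spindle protein, fell from 122 ± 7.89 to 57.0 ± 11.6 CPM (SD, n = 2 each; log2 fold change -1.10, adjusted p = 3.7e-05, edgeR) and TOP2A, which untangles chromosomes, fell by 0.74 on the log2 scale (adjusted p = 0.00015, edgeR). HJURP, the chaperone of the centromeric histone, had 55.2 ± 0.192 and 55.1 ± 2.01 CPM (log2 fold change -0.00, adjusted p = 0.98, edgeR). CCNB1, the mitotic cyclin, was singled out after its values were seen and fell from 220.0 ± 10.8 to 126 ± 24.4 CPM (adjusted p = 0.00028, edgeR). The number called was 3 of 29 with library sizes as the only scaling, which ended the call of CCNB1. In that setting 997 of all 16468 genes were called lower. With 1 library left out, the median log2 fold change of the 29 lay between -0.62 and -0.34.

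The regulators of this class are the DREAM and MuvB complexes, E2F factors and their partners. Of 22 such genes, 1 rose (4.55%) and 3 fell (13.6%), close to the 6.37% and 8.14% of all genes, with a median log2 fold change of -0.28. E2F7, a repressor of E2F targets, rose from 23.0 ± 1.2 to 47.6 ± 10.6 CPM (SD, n = 2 each; log2 fold change 1.05, adjusted p = 0.00011, edgeR). TFDP2, a dimer partner of E2F factors, and LIN52, a subunit of MuvB, fell, with log2 fold changes of -0.78 and -0.68 (adjusted p = 6.7e-05 and 0.0006, edgeR). The call of LIN52 was lost without the first SGSS05-NS library and with library sizes as the only scaling. E2F2 had a log2 fold change of -0.01 (adjusted p = 0.97, edgeR). FOXM1 and MYBL2, the activators of late cell cycle genes, were named after their values were seen and had log2 fold changes of -0.16 and -0.09 (adjusted p = 0.20 and 0.49, edgeR).

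Genes that work with PLK4 in centriole duplication mostly did not pass the test. Of 31 genes, 5 fell (16.1%, against 8.14% of all genes) and 0 rose, and the median log2 fold change was -0.12. CETN3, a centrin of the centriole lumen, fell from 38.4 ± 1.48 to 20.3 ± 0.561 CPM (SD, n = 2 each; log2 fold change -0.92, adjusted p = 3.8e-05, edgeR). CEP44, a centriolar protein, fell by 0.77 on the log2 scale (adjusted p = 4.4e-05, edgeR), and SPICE1 had a log2 fold change of -0.01 (adjusted p = 0.98, edgeR). The direct partners of the kinase were named after their values were seen. STIL, its main substrate, had 59.1 ± 0.441 and 55.2 ± 4.68 CPM, and CEP152, its scaffold, 39.9 ± 1.99 and 35.4 ± 0.560 CPM, with log2 fold changes of -0.10 and -0.17 (adjusted p = 0.43 and 0.17, edgeR). SASS6, the cartwheel protein, had a log2 fold change of -0.39 (adjusted p = 0.0081, edgeR). BTRC and FBXW11, the F-box proteins through which PLK4 protein is degraded, fell, with log2 fold changes of -0.91 and -0.52 (adjusted p = 0.00018 and 0.00079, edgeR). The call of FBXW11 was lost without the first DMSO library, without the second SGSS05-NS library and with library sizes as the only scaling.

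G1/S genes are transcribed before mitosis begins. Of 20 genes, 1 rose (5.0%, against 6.37% of all genes) and 4 fell (20%, against 8.14%), with a median log2 fold change of -0.18, and PLK4 had a lower log2 fold change than 15 of them. POLA1, a subunit of DNA polymerase alpha, and RRM2, a subunit of ribonucleotide reductase, fell, with log2 fold changes of -0.86 and -0.66 (adjusted p = 4.9e-05 and 0.00018, edgeR). CDT1, a licensing factor, rose from 64.0 ± 9.62 to 97.5 ± 3.36 CPM (SD, n = 2 each; adjusted p = 0.00092, edgeR), and CDC6, another, had a log2 fold change of -0.01 (adjusted p = 0.95, edgeR). CDT1 was not called without the second DMSO library, with library sizes as the only scaling or without regard to strand.

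PLK2 and PLK3 are usually placed among p53 targets and immediate early genes, and most genes of both lists rose. Of 24 p53 target genes, 21 rose and 0 fell, where 6.37% of all genes rose, and the median log2 fold change was 1.84. PLK2 had a higher log2 fold change than 16 of them and PLK3 than 20. SESN2, a sestrin, rose from 6.92 ± 0.585 to 97.6 ± 8.19 CPM (SD, n = 2 each; log2 fold change 3.82, adjusted p = 2.2e-09, edgeR) and BTG2, an antiproliferative gene, from 5.79 ± 1.28 to 91.9 ± 4.70 CPM (adjusted p = 4.8e-09, edgeR). TP53I3, an oxidoreductase, was not called, with a log2 fold change of 0.51 (adjusted p = 0.0063, edgeR). The list was written with earlier results of these libraries known and is no independent evidence of its direction.

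Immediate early genes, which serum and stress switch on within minutes to hours, were the other list. Of 29 such genes 26 were tested, 21 rose (80.8%, against 6.37% of all genes) and 1 fell (3.85%, against 8.14%). The median log2 fold change was 2.39. Some members, such as FOSL1 with 1 and 0 fragments in controls, passed the filter only through the treated libraries, which fixed their direction. With at least 10 counts in every library, 20 were tested, 15 rose and 1 fell. The median was then 1.65, below the log2 fold change of PLK2. PLK2 had a higher value than 12 of the 26 and PLK3 than 18. ARC, a synaptic gene, rose from 4.10 ± 0.440 to 51.2 ± 0.870 CPM (SD, n = 2 each; log2 fold change 3.64, adjusted p = 4.9e-09, edgeR) and IER5 rose by 2.49 on the log2 scale (adjusted p = 4.0e-08, edgeR). MYC fell from 172 ± 3.83 to 80.3 ± 18.0 CPM (log2 fold change -1.09, adjusted p = 4.6e-05, edgeR), and DUSP6, a phosphatase of ERK, had a log2 fold change of -0.01 (adjusted p = 0.93, edgeR). IER3, KLF4 and CCN2 had too few fragments to be tested. This list too was written with earlier results of these libraries known and is no independent evidence of its direction.

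Known substrates of PLK2 and PLK3 did not move with them as a group. Of 16 genes 15 were tested, 2 rose (13.3%, against 6.37% of all genes) and 3 fell (20%, against 8.14%), and the median log2 fold change was -0.32. JUN, an AP-1 factor, rose from 25.7 ± 1.03 to 150 ± 61.4 CPM (SD, n = 2 each; log2 fold change 2.54, adjusted p = 3.5e-06, edgeR), with a wide spread between the treated libraries. SIPA1L1, the synaptic protein that PLK2 marks for degradation, fell from 46.0 ± 4.98 to 21.1 ± 1.18 CPM (log2 fold change -1.12, adjusted p = 1.5e-05, edgeR), and CENPJ, a centriole protein that PLK2 phosphorylates, had a log2 fold change of 0.04 (adjusted p = 0.79, edgeR). TOP2A, given above among the late cell cycle genes, is also a substrate on this list.

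**Figure D4:**
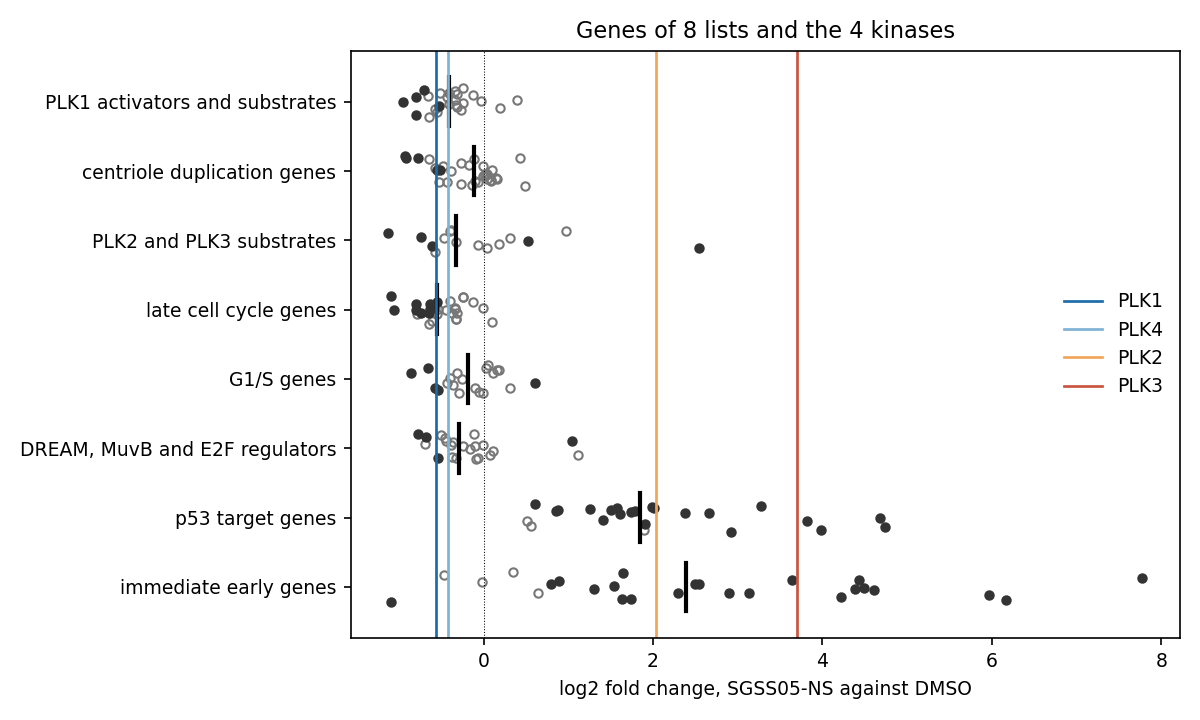
Log2 fold change of SGSS05-NS against DMSO for the tested genes of 8 lists, 1 point a gene with vertical scatter for legibility; filled points passed an adjusted p-value under 0.001, black ticks are list medians and coloured lines mark the 4 kinases. PLK1 and PLK4 lie within the range of every list but the p53 targets, the late cell cycle genes (median -0.54) among them. PLK2 and PLK3 lie within the ranges of the p53 targets (median 1.84) and immediate early genes (median 2.39). PLK2 also lies within the range of the PLK2 and PLK3 substrates, below JUN.

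The length of a gene and its fold change went together in these libraries, and all 4 kinases are in the short classes. Protein-coding genes under 10 kb, the class of PLK2 and PLK3, had a median log2 fold change of 0.15 (2241 genes), and those from 10 to 20 kb, the class of PLK1 and PLK4, one of 0.18 (2028 genes). Genes of 100 kb and over had a median of -0.44 (2652 genes). PLK1 and PLK4 were therefore below the median of genes of their own length class, and PLK2 and PLK3 above that of theirs. Calls differed with length too. Of the 2652 genes of 100 kb and over, 784 were called lower and 35 higher. Under 10 kb, 55 of 2241 were called lower and 247 higher. The list counts above are set against all genes without regard to length, and the part of length in them was not tested.

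The genes with the nearest profile were taken from 10528 protein-coding genes whose mean log2 CPM reached 2, by the Euclidean distance of centred log2 CPM over the 4 libraries. For PLK3 they were ARC (distance 0.16), SESN2 (0.19) and ZFAND2A (0.28). ARC had 3.79, 4.41, 50.6 and 51.8 CPM in the 4 libraries, close to PLK3 in level too. For PLK2 they were TIGAR, PRNP and MICALL2, each 0.19 away, of which TIGAR is also on the list of p53 targets. For PLK1 they were SLTM (0.02), TUB (0.04) and ZMYM4 (0.04), and for PLK4 PANK3, BLTP2 and ICE2, each 0.01 away. Small distances are common for genes with small differences, so the distances of PLK1 and PLK4 are not comparable with those of PLK2 and PLK3, and 4 libraries of 2 groups mostly rank genes by their difference between the groups.

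**Figure D5:**
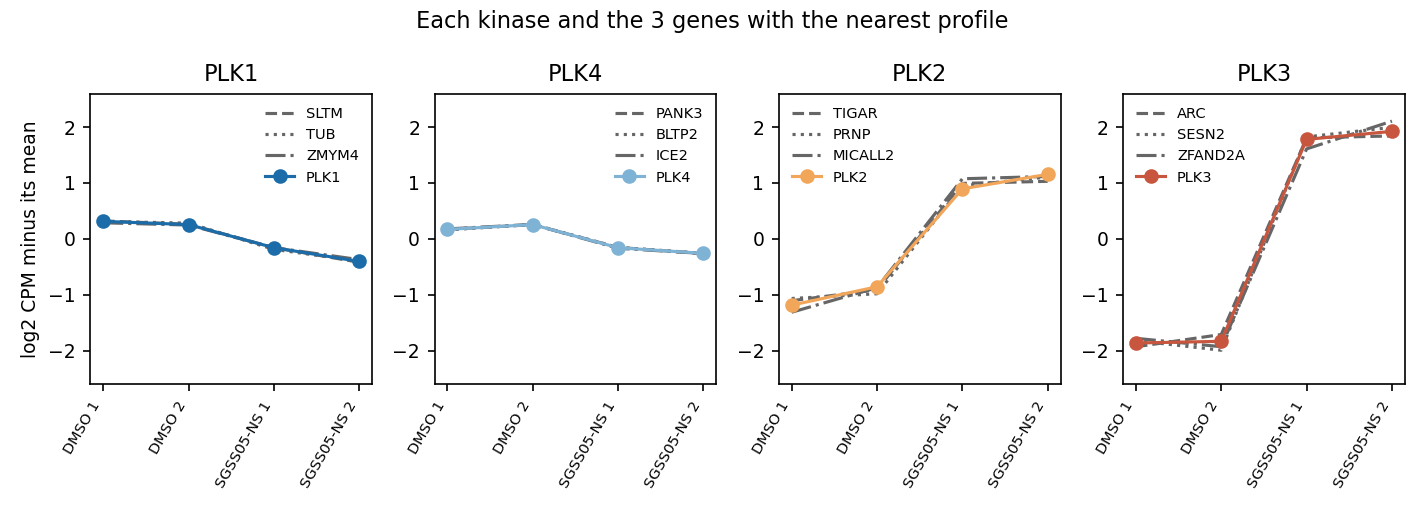
Log2 CPM minus its mean over the 4 libraries for each kinase (coloured) and the 3 genes with the nearest profile (grey); lines join the libraries for legibility only. The profiles of PLK1 and PLK4 and their neighbours lie at distances of at most 0.04, and those of PLK2 and PLK3 at distances of at most 0.28.

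PLK5, the remaining Polo-like kinase gene of the genome, which in humans lacks most of its kinase domain, was barely detected. Neither DMSO library held a fragment of it (0 of 2 libraries), the SGSS05-NS libraries held 2 and 1, and it was not tested. No difference could be detected at this depth.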

How the data were processed

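RNA-seq counts of 4 libraries were used, 2 of SY5Y cells with DMSO and 2 with SGSS05-NS, grouped by their titles. Per the labels and the study's methods, the authors used Trimmomatic 0.30 on paired reads of 125 bp and STAR 2.4.2a for alignment to hg19 (GENCODE 19). The deposited values are raw counts, not normalized and not pooled. Each file holds 4 summary lines, left out here, and 3 count columns (unstranded, forward, reverse). The labels and the methods name different library kits. The reverse-strand column was used, with 21463105 to 25350204 fragments per library. Fragments mapped to several places are not counted, which lowers genes that have close copies.

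Gene identifiers were matched to GENCODE release 44 on GRCh37, where 55538 of 57820 had an entry. Genes were filtered with filterByExpr, scaled with TMM and compared with edgeR 4.0.16 (R 4.3.3) by the quasi-likelihood test of SGSS05-NS against DMSO with no other term, with Benjamini-Hochberg adjustment over 16468 genes and a threshold of 0.001. The standard error is the size of the log2 fold change divided by the square root of F. With 2 libraries in each group the spread of a gene is largely taken from all genes, and no exact permutation test of a single value could go below p = 0.33. The script was tested on simulated data. Promoter windows are from RefSeq (GRCh38.p14), 1 for each of PLK1, PLK2 and PLK3 and 3 for PLK4.

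The members and the 8 gene lists were chosen with earlier results of these data known. The lists were written from general knowledge, 15 of their 180 genes are on more than 1 list, and the kinases are on none. The text names, in each list, the 2 genes with the smallest p-values in each direction among those called, and the 1 with the p-value nearest to 1, with the 3 genes of nearest profile for each kinase (log2 CPM with a prior count of 2). AURKA, BORA, CCNB1, FOXM1, MYBL2, STIL, SASS6, CEP152, BTRC and FBXW11 were added after their values were seen. Cell type markers were fixed likewise, and 20 of 22 were matched. Alternatives were edgeR's likelihood ratio test (the test of the study), DESeq2 1.42.0, limma voom (limma 3.58.1), other scalings and filters, the replicate number as a block, the unstranded column, a threshold of 0.05 and each library left out in turn. The numbers of the replicates were checked for pairing: deviations of same-numbered libraries correlated with r = 0.0526 across 16468 genes, which are not independent. Protein sequences were not used here, and some genes that this rule names are not reported here.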

Additional observations from a re-analysis of the deposited data

How the results depend on the processing

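The log2 fold changes of the 4 kinases kept their direction in all 52 alternative values and moved by less than the spread between libraries. They ranged from -0.70 to -0.44 for PLK1, from 1.88 to 2.20 for PLK2, from 3.63 to 3.76 for PLK3 and from -0.48 to -0.37 for PLK4, each range being that of the fits with 1 library left out. In those fits the lone library of a group is assumed to vary like the others. Because the groups did not overlap, leaving 1 library out could hardly turn a direction. With 2 libraries in a group, such a shift is also bound to be smaller than their spread. The fits with 1 library left out are therefore no evidence that the values are stable. Of 637 values of named genes, 577 kept their direction and their side of the threshold, 18 lost the call and 21 gained one. Depth limits only PLK5 in this family. All values rest on 1 cell line and 2 libraries per group, and levels between genes depend on the exon length used.

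The number of genes called, 2390, was 4289 with the likelihood ratio test, 4604 without a filter on low counts, 3766 with the replicate number as a block and 7631 at a threshold of 0.05, and between 2359 and 2838 with 1 library left out. With library sizes only, 1926 genes were called, 929 as higher and 997 as lower. The labels do not say that a number marks a shared day or batch, so the block shows how the counts depend on it and no pairing was assumed. For the PLK1 activators and substrates the count was 11 with the likelihood ratio test, 1 with library sizes only, 12 without a filter, 10 with the replicate block, 19 at 0.05 and 4 to 11 with 1 library left out. For the centriole genes it was 9, 3, 10, 8 and 15 in the same order and 4 to 7 with 1 library left out. For the late cell cycle genes it was 3 with library sizes only, 18 without a filter, 16 with the block, 24 at 0.05 and 9 to 16 with 1 library left out. For the substrates of PLK2 and PLK3 it was 8 with the likelihood ratio test, 9 without a filter, 11 at 0.05 and 4 to 7 with 1 library left out. For the G1/S genes it was 2 with library sizes only, 8 without a filter, 12 at 0.05 and 4 to 5 with 1 library left out, and for the DREAM, MuvB and E2F regulators 2, 8, 13 and 4 to 6. The block moved no other count by over 1.5 times. The counts for p53 targets and immediate early genes stayed within 1.5 times throughout, from 20 to 24 and from 16 to 25. The cause of these shifts was not tested.

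The level per kb in DMSO libraries moved with the length of the longest transcript to 26.1 for PLK1, 8.89 for PLK2, 1.64 for PLK3 and 18.8 for PLK4, and with counts without regard to strand to 23.3 for PLK1, 1.25 for PLK3 and 16.9 for PLK4. With 1 DMSO library left out it was 22.2 to 23.2 for PLK1, 4.73 to 5.95 for PLK2, 1.21 to 1.24 for PLK3 and 15.6 to 16.6 for PLK4. Genes with log2 fold changes near 0 changed sign. With library sizes only, the values were 0.02 for CDC6, 0.02 for DUSP6, 0.03 for E2F2, 0.03 for HJURP and 0.02 for SPICE1. With at least 10 counts in every library they were 0.00 for CDC6 and 0.01 for E2F2, HJURP and SPICE1, and without regard to strand CENPJ was -0.00. With 1 library left out CDC6 lay between -0.14 and 0.11, CENPJ between -0.05 and 0.11, CENPU between -0.16 and 0.07, DUSP6 between -0.14 and 0.10, E2F2 between -0.05 and 0.01, HJURP between -0.05 and 0.03, SPICE1 between -0.13 and 0.10 and MYBL2 between -0.22 and 0.01.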
